A study of Mus musculus with 14 samples.

Results

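The imprinted genes Nnat, Igf2, Peg3, Mest, Plagl1, Dlk1, H19, Meg3, Cdkn1c and Grb10 were followed across 14 mouse mammary tumors profiled by bulk RNA-seq. They are 10 of the 56414 genes listed, found by their symbols. The set was chosen by the measured difference of Nnat, which had been seen to be higher with NAM (nicotinamide, a form of vitamin B3) in both tumor models. For Nnat, the values with and without NAM are therefore a description without a test, and the other 9 genes were tested. All tumors grew in female C57Bl/6 mice. M/D-driven tumors arose in the mammary glands of mice that received, from an age of 6 to 9 weeks, a slow-release pellet of 50 mg MPA (medroxyprogesterone acetate, a synthetic progestin) and gavages of DMBA (a carcinogen, 200 µL at 5 mg/mL). AT3 tumors came from 1000000 cells of a single mouse mammary carcinoma line injected under the skin, so that they share 1 cell line. When tumors reached 0.25 cm2, mice either had plain drinking water (4 M/D-driven and 3 AT3 tumors) or water with 0.5% NAM for 10 days (4 M/D-driven and 3 AT3 tumors). Each tumor gave 1 library of polyadenylated RNA.

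Imprinted genes are expressed mainly from the copy inherited from 1 parent, as set by DNA methylation that is laid down in the germ line and kept in the body. Many act on growth, and paternally expressed genes such as Igf2 are known for promoting it, while maternally expressed genes such as H19, Cdkn1c and Grb10 are known for restraining it. In adults most are held at low levels, with exceptions such as Nnat in neurons, pancreatic islets and fat, and imprinted loci are often abnormally expressed in tumors. RNA-seq read totals do not tell the parental copies apart, and imprinting itself was not measured here.

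The start sites of imprinted genes often lie in DNA rich in CpG, the dinucleotide that is methylated. The bases before a RefSeq start site are shown for Nnat, on which the choice rested, and for Mest, Grb10 and Peg3, which passed the test with NAM in AT3 tumors. Sequences are those of RefSeq on GRCm38.p6, 5′ to 3′, with each CpG in capitals.
Nnat (chr2:157559828-157560077, plus strand): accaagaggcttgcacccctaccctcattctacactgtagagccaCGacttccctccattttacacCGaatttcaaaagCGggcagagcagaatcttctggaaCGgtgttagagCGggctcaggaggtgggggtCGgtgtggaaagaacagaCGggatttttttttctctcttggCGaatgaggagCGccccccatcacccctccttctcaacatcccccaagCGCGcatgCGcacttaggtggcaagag
Mest (chr6:30737800-30738049, plus strand): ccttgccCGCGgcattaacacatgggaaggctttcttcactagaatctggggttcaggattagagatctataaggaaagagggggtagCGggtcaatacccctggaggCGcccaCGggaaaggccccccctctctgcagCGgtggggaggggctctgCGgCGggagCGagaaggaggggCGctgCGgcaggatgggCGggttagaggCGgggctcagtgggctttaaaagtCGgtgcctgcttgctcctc
Grb10 (chr11:12037421-12037670, minus strand): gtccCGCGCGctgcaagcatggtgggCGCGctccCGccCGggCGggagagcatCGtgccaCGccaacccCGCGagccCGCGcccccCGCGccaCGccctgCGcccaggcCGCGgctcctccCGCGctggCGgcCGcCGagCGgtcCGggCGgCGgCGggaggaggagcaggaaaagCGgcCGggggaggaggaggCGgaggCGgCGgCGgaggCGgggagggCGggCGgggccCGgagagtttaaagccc
Peg3 (chr7:6730432-6730577, minus strand): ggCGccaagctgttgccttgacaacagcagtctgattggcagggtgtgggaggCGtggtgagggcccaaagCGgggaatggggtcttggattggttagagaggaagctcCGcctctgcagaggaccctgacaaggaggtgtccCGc
The Nnat window holds 12 CpG in 250 bases, the Mest window 14 and the Grb10 window 40, against a median of 6 over all 32851 promoters of the table. As many CpG as in the Grb10 window were found in 1.31% of all promoters, and as many as in the Nnat window in 33.5%. For Mest and Grb10, which have several start sites, the window with the most CpG is printed. That of Mest precedes an inner start site of the gene, and the window before the outermost one (chr6:30733256-30733505) holds 7 CpG, while the other Grb10 window holds 8. The Grb10 window shown lies within the gene row of the deposited table. The Peg3 stretch is 146 bases that lie between the starts of Peg3 and of Usp29, which is transcribed the other way, and holds 5 CpG. A promoter was found for 8 of the 10 genes, 15 in all. TGCCGC, a core of the motif bound by the methylation-dependent imprint factor ZFP57, occurred on either strand in 4 of these 15 promoters (Mest at 2 overlapping windows, Plagl1 and Meg3), and in 8.68% of all promoters.

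The gene rows of H19 and Meg3 also cover the precursors of microRNAs. MiR-675 is cut from H19 RNA, and its mature arms are shown with the seed (bases 2 to 8) in capitals, since the value of H19 given below is that of this joint row and not of the mature microRNA.
miR-675-5p (chr7:142577112-142577133, minus strand): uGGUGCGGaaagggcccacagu
miR-675-3p (chr7:142577078-142577099, minus strand): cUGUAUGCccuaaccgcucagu

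Depth ranged from 40936868 to 84178009 reads counted on genes per tumor. Values are normalized read counts, in which the authors divided reads by a size factor, separately for the M/D-driven and the AT3 tumors. NAM-treated M/D-driven tumor 1 was the only tumor of experiment 2 (the 7 other M/D-driven tumors were in experiment 1) and stood apart. Its count for the B cell gene Cd79a was 86806, against at most 822 in the other 13 tumors, and the sum of 10 epithelial markers was 8538, against 278685 or more in the other M/D-driven tumors. Differences with NAM in M/D-driven tumors are thus also given without this tumor. In tissue RNA, fewer cells of a type and less RNA per cell cannot be told apart.

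Nnat encodes neuronatin, a small membrane protein of the endoplasmic reticulum that acts on calcium handling, and lies at chr2:157560078-157562525 (plus strand, mm10) inside Blcap, which is on the opposite strand. In untreated M/D-driven tumors 1 to 4, the normalized read count of Nnat was 1213, 2093, 650 and 2557. In NAM-treated M/D-driven tumors 1 to 4, it was 7352, 2310, 3887 and 2407. The treated tumors hold the 2 highest values, but the groups overlapped, as untreated tumor 4 was above treated tumors 2 and 4. The mean was 1628 ± 858 without and 3989 ± 2355 with NAM (SD, n = 4 each), and the difference on the log2(normalized read count + 1) scale was 1.31 ± 0.52 (SE). It was 0.96 without treated tumor 1, and between 0.93 and 1.59 with any 1 tumor left out.

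In AT3 tumors Nnat was near 0. Untreated tumors 1 to 3 had 0, 2 and 0 reads of Nnat, and NAM-treated tumors 1 to 3 had 26, 18 and 8 reads. As normalized read counts, these were 0, 2.03 and 0 without NAM and 31.6, 16.9 and 6.61 with NAM. All treated tumors were above all untreated ones, and Nnat passed the minimum level for the fit only through the treated group. Summed over tumors and scaled for depth, 2 against 52 reads are a ratio of 24.4, with a 95% interval of 6.42 to 207 that covers counting error only. The interval leaves out the spread between tumors and the choice of Nnat by this difference, so it is not a test. The log2 difference was 3.51 ± 0.98 (SE), and it ranged from 1.91 with a pseudocount of 5 to 4.72 in DESeq2. Even with NAM, the highest AT3 tumor stayed far below the lowest M/D-driven tumor (31.6 against 650).

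Blcap, which encodes a small protein of the same locus that hosts Nnat, was between 1573 and 3947 in all 14 tumors. Its normalized read count was 2156 to 3441 in untreated and 2086 to 3947 in NAM-treated M/D-driven tumors, 2140 to 2303 in untreated AT3 tumors and 1573 to 1948 in NAM-treated AT3 tumors. The AT3 groups did not overlap, with a log2 difference of -0.38 ± 0.20 (adjusted p = 0.259, limma) that did not pass the thresholds given below. Between Blcap and Nnat, Pearson r was -0.17 and Spearman rho 0.0952 across M/D-driven tumors (n = 8). Across AT3 tumors r was -0.633 and rho -0.638 (n = 6). Both run over treated and untreated tumors, so they include the difference with NAM by which Nnat was chosen. They are a description without a test. Whether reads were counted by strand is not stated, so reads from a gene and from a gene on the opposite strand at the same place could not be told apart.

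**Figure D1:**
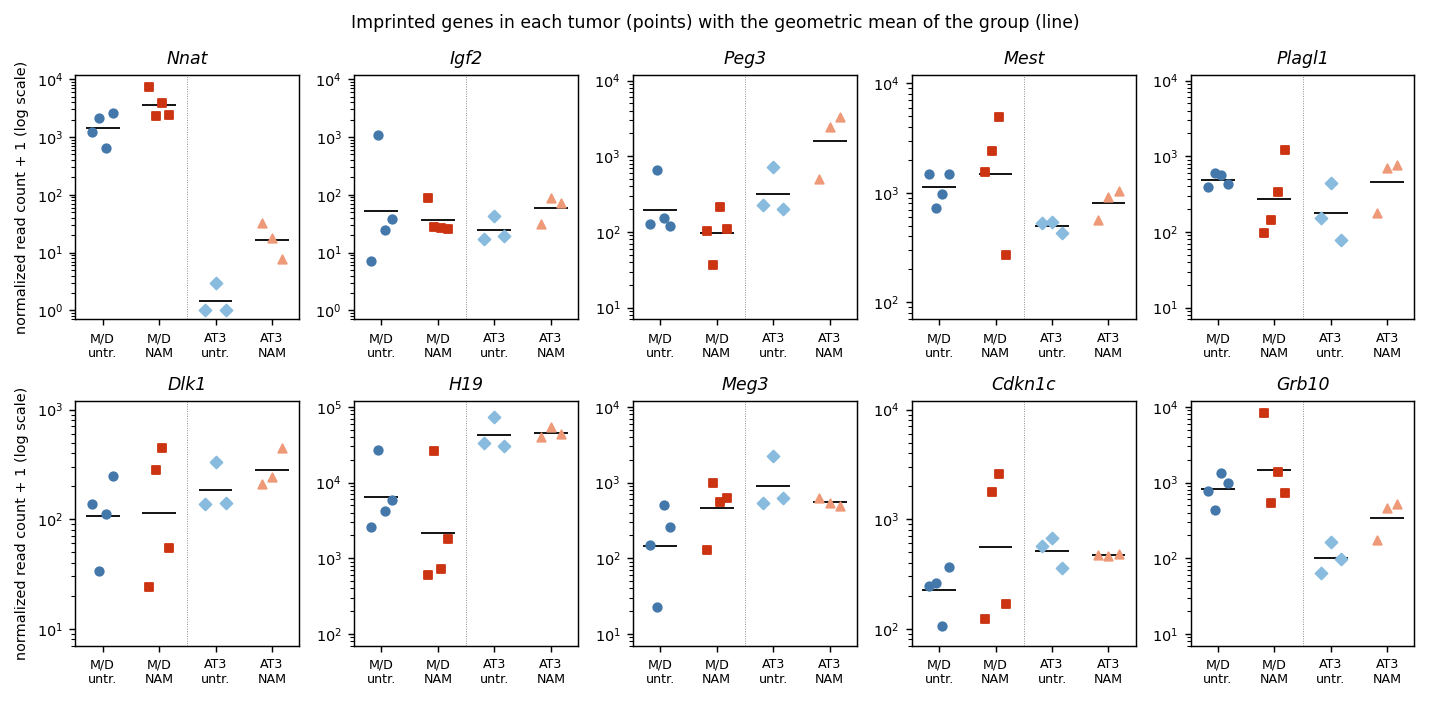
Normalized read count plus 1 (log scale) of each imprinted gene in each tumor (points), with the geometric mean of each group (line), for M/D-driven tumors (4 untreated, 4 with NAM) and AT3 tumors (3 untreated, 3 with NAM). Nnat sits at 650 or above in every M/D-driven tumor and at 31.6 or below in every AT3 tumor, while single M/D-driven tumors stand far from their group for H19, Igf2, Peg3 and Grb10.

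Which other imprinted genes differed with NAM in M/D-driven tumors was asked of the 9 remaining genes. None of them passed the thresholds (unadjusted p of at most 0.05 in limma and a fold change of at least 1.5), which 6.22% of the 21700 genes tested passed, and none was free of overlap between groups, as 4.43% of genes were. Without treated tumor 1, the only tumor of experiment 2, none of the 9 passed the thresholds either. The log2 difference was then -0.96 for Igf2, -1.05 for Peg3, -0.34 for Plagl1, 0.41 for Mest, 0.85 for Dlk1, -0.99 for H19 and 2.03 for Cdkn1c, and those of Meg3 and Grb10 are given with these genes. After Benjamini-Hochberg adjustment 1 gene of the 21700 (0.00461%) was called. The median log2 difference over the 9 genes was 0.10, against 0.01 over all genes tested, with 5 of 9 above 0 (51.1% of all genes).

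Among the paternally expressed growth factor and regulator genes, Igf2 (insulin-like growth factor 2, chr7:142650768-142666816, minus strand, mm10) was low in most M/D-driven tumors. Its normalized read count was 6.23, 1067, 24.03 and 37.0 in untreated tumors 1 to 4 and 87.4, 26.8, 25.8 and 24.9 in treated tumors 1 to 4. Untreated tumor 2 was 12.2 times above the next tumor, and the log2 difference of -0.53 ± 1.39 (SE, adjusted p = 0.946, limma) went to 0.93 without it. Peg3, a zinc finger protein (chr7:6705960-6730422, minus strand), was again highest in untreated tumor 2, with 125, 655, 153 and 118 without NAM and 101, 35.3, 214 and 110 with NAM (log2 difference -1.03 ± 0.71, adjusted p = 0.779, limma). Plagl1, a zinc finger transcription factor that slows the cell cycle (chr10:13060504-13131692, plus strand), was 394, 594, 571 and 431 without NAM and 95.9, 141, 340 and 1193 with NAM. Treated tumors 1 to 3 were below every untreated tumor and treated tumor 4 was above them all. The log2 difference for Plagl1 was -0.84 ± 0.72 (adjusted p = 0.806, limma), and it was -1.55 and past the thresholds without treated tumor 4.

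Mest, which encodes an enzyme-like protein of the endoplasmic reticulum linked to fat storage (chr6:30733506-30748465, plus strand), was 1479, 733, 969 and 1482 without NAM and 1539, 2417, 4939 and 271 with NAM. Treated tumors thus included the highest and the lowest value of Mest, and its log2 difference of 0.42 ± 0.80 (adjusted p = 0.921, limma) was 1.24 and past the thresholds without treated tumor 4, and -0.15 without treated tumor 3. Dlk1, the membrane protein that marks and holds back preadipocytes (chr12:109452823-109463336, plus strand), was 137, 32.6, 110 and 244 without NAM and 22.9, 281, 446 and 53.7 with NAM. Its log2 difference was 0.10 ± 1.02 (adjusted p = 0.99, limma), and the values of the groups interleaved.

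Of the maternally expressed genes, H19 had the highest counts. This noncoding RNA (chr7:142575530-142578146, minus strand) was at 2553, 26812, 4203 and 5920 in untreated M/D-driven tumors and at 604, 25839, 719 and 1803 in treated ones. Tumor 2 of either group was far above the rest, and the other 3 treated tumors were below all untreated tumors. The log2 difference was -1.60 ± 1.23 (adjusted p = 0.796, limma), and it was -2.80 and past the thresholds without treated tumor 2. Meg3, a noncoding RNA of the Dlk1 locus (chr12:109540996-109571729, plus strand), was 151, 21.7, 511 and 257 without NAM and 127, 972, 547 and 627 with NAM. Treated tumors 2 to 4 were above every untreated tumor and treated tumor 1 was not. The log2 difference of Meg3 was 1.64 ± 1.00 (adjusted p = 0.759, limma), and 2.25 without treated tumor 1, which did not pass either.

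Cdkn1c, an inhibitor of cyclin-dependent kinases (chr7:143458340-143461050, minus strand), was 244, 260, 105 and 366 without NAM and 121, 1768, 2562 and 166 with NAM. Treated tumors 2 and 3 were above every untreated tumor and the other 2 within their range (log2 difference 1.30 ± 1.03, adjusted p = 0.797, limma). Grb10, an adaptor that binds and restrains the insulin and IGF1 receptors (chr11:11930499-12037953, minus strand), was 763, 436, 1320 and 987 without NAM and 8240, 535, 1395 and 723 with NAM. Its log2 difference of 0.84 ± 0.82 (adjusted p = 0.826, limma) went to 0.0046 without treated tumor 1, the tumor with the high B cell counts, whose part in the value was not tested. Ddc, the gene next to Grb10 on chromosome 11, was at 11508 in that tumor and at 51 or below in the other 13.

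In AT3 tumors 3 of the 9 tested genes rose with NAM past the same thresholds, and no gene of the 9 fell past them. Of all 19281 genes tested, 23.1% passed them, 12.2% upward. None of the 3 genes passed at an adjusted p of at most 0.05, as 1 gene of the 19281 (0.00519%) did. The paternally expressed Peg3 was 223, 723 and 201 in untreated tumors 1 to 3 and 507, 2439 and 3292 in treated tumors 1 to 3. Untreated tumor 2 was above treated tumor 1, so the groups overlapped, and the log2 difference was 2.32 ± 0.71 (adjusted p = 0.166, limma). Mest was 525, 540 and 433 without NAM and 559, 916 and 1039 with NAM, with no overlap. Its log2 difference was 0.70 ± 0.28 (adjusted p = 0.184, limma), and it no longer passed when untreated tumor 1 or 3, or treated tumor 2 or 3, was left out, or with upper quartile scaling (0.50). Grb10 was 62.3, 163 and 96.0 without NAM and 173, 456 and 512 with NAM. Its groups did not overlap either, although untreated tumor 2 came close to treated tumor 1, and the log2 difference was 1.78 ± 0.49 (adjusted p = 0.166, limma). Of the 9 genes, 2 (Mest and Grb10) were thus free of overlap and higher with NAM, beside 11.7% of all genes tested. Neither passed in a fit of all 14 tumors, in which Peg3 did.

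Igf2, Plagl1, Dlk1, H19, Meg3 and Cdkn1c did not pass in AT3 tumors. Igf2 was 15.9, 42.6 and 18.7 without NAM and 30.4, 86.5 and 71.9 with NAM (log2 difference 1.26 ± 0.56, adjusted p = 0.208, limma). Plagl1 was 154, 446 and 78.1 without NAM and 179, 704 and 776 with NAM (log2 difference 1.39 ± 0.70, adjusted p = 0.247, limma). In both genes untreated tumor 2 lay above treated tumor 1, as for Peg3, and both passed the thresholds when untreated tumor 2 or treated tumor 1 was left out, with log2 differences of 2.06 and 2.07 for Plagl1. Dlk1 was 138, 331 and 138 without NAM and 208, 240 and 440 with NAM (log2 difference 0.60 ± 0.43, adjusted p = 0.389, limma), and it was 1.02 and past the thresholds without untreated tumor 2. For these genes the same untreated tumor was the highest of its group.

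Of the maternally expressed genes, H19 was 33210, 73741 and 30103 without NAM and 39819, 54435 and 43851 with NAM, a log2 difference of 0.12 ± 0.35 (adjusted p = 0.841, limma). Meg3 was 538, 2267 and 619 without NAM and 627, 536 and 484 with NAM (log2 difference -0.74 ± 0.49, adjusted p = 0.355, limma), where untreated tumor 2 alone was far above the other 5. Cdkn1c was 564, 665 and 357 without NAM and stayed between 461 and 479 with NAM (log2 difference -0.12 ± 0.28, adjusted p = 0.792, limma).

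In AT3 tumors the difference with NAM also went with transcript length, with a Spearman correlation of 0.59 across 16429 genes with a known length, while it was -0.04 across 18460 genes in M/D-driven tumors. Genes of a length like that of Peg3 had a median log2 difference of 0.74, those like Grb10 0.47, those like Mest -0.06 and those like Nnat -0.42. With the trend on length and GC content removed from each tumor, the log2 difference was 1.59 for Peg3 and 1.30 for Grb10, both still past the thresholds, and that of Nnat was 3.89. Meg3, the longest of the 10 transcripts, then was at -1.60 and past the thresholds.

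**Figure D2:**
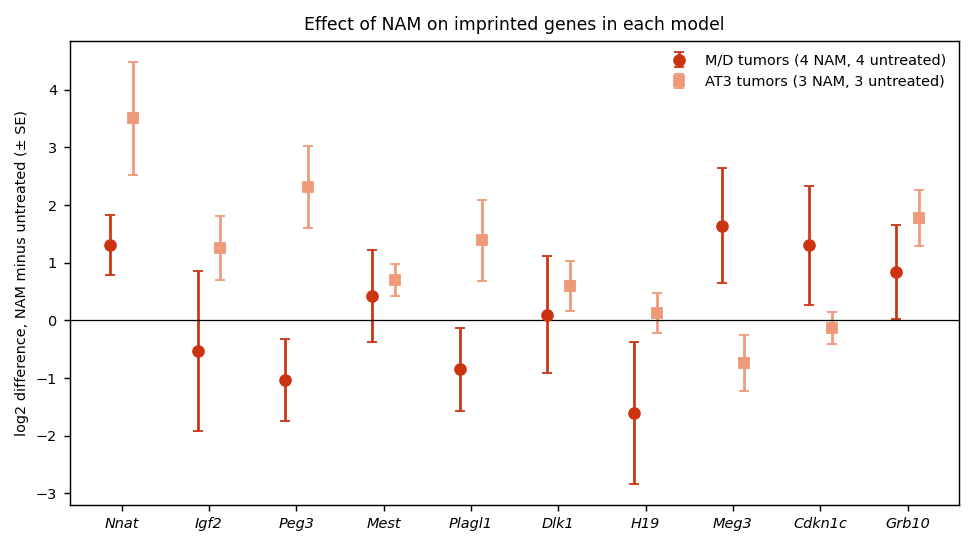
Log2 difference of NAM-treated minus untreated tumors (± SE) for each imprinted gene, in M/D-driven tumors (4 against 4) and AT3 tumors (3 against 3), on log2(normalized read count + 1). The error bars are wider in M/D-driven tumors for 8 of the 10 genes, and Peg3 lies at -1.03 in M/D-driven and at 2.32 in AT3 tumors.

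Whether the effect of NAM differed between the models was tested by an interaction term over all 14 tumors. Of the 9 genes, Peg3 passed the unadjusted thresholds, which 14.9% of 22710 genes passed, and 0 genes (0%) passed at an adjusted p of at most 0.05 in limma or edgeR, against 834 in DESeq2 and 3387 (14.9%) at an unadjusted p in limma. The effect of NAM on Peg3 was 3.35 lower in M/D-driven than in AT3 tumors on the log2 scale (-3.35 ± 1.13, adjusted p = 0.235). Plagl1 and Meg3 had differences of -2.23 (adjusted p = 0.367) and 2.38 (adjusted p = 0.391) and did not pass. Plagl1 passed without NAM-treated M/D-driven tumor 4 (-2.94), untreated AT3 tumor 2 (-2.90) or NAM-treated AT3 tumor 1 (-2.91). Meg3 passed without NAM-treated M/D-driven tumor 1 (2.99) or untreated M/D-driven tumor 3 (2.98), in DESeq2 (2.36) and with the length and GC trend removed (3.12). H19 passed without NAM-treated M/D-driven tumor 2 (-2.92), and Grb10 without NAM-treated M/D-driven tumor 1 (-1.77). For Nnat the difference was -2.20 ± 0.90 (SE), a description only.

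Between the untreated models, put on a common scale by size factors over all 14 tumors, 4 of the 9 genes other than Nnat differed (adjusted p of at most 0.05 in limma and a fold change of at least 1.5), which is what 50.5% of 21713 genes did (27.2% higher and 23.2% lower in M/D-driven tumors). Groups did not overlap for 5 of the 9, against 53.8% of all genes. All AT3 tumors were of experiment 3, so model and experiment cannot be told apart. Nnat was 595 to 2377 in M/D-driven and 0 to 2.42 in AT3 tumors on this scale, a log2 difference of 9.79 ± 0.64 (SE). This is a description without a test, since Nnat was chosen from values that include these untreated tumors. From 7137 and 2 reads, the ratio was 1759, with a 95% counting interval of 487 to 14530. Adipocyte markers were higher in M/D-driven tumors as well (10 of 10 called, beside 27.2% of all genes, median log2 difference 5.77). So were nerve and Schwann cell markers (5 of 8 called higher, median 3.24) and epithelial markers (7 of 10, median 2.56). Medians were also above 0 for leukocyte (1.40), fibroblast (1.12) and endothelial markers (0.92). Of the skeletal muscle markers 0 of 9 were called (median -1.22). The part of these cell types was not tested. Grb10, a brake on insulin signaling, was 409 to 1207 in M/D-driven and 77.3 to 195 in AT3 tumors (log2 difference 2.62 ± 0.44, adjusted p = 0.00171, limma).

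The other 3 genes were lower in M/D-driven tumors, and they are maternally expressed, as is Grb10. H19 was 2358 to 25184 in M/D-driven and 37336 to 87818 in AT3 tumors (log2 difference -3.11 ± 0.72, adjusted p = 0.00754, limma). Meg3 was 20.4 to 467 against 667 to 2700 (log2 difference -3.04 ± 0.97, adjusted p = 0.0283, limma), a call that was lost when untreated M/D-driven tumor 1 or any 1 AT3 tumor was left out (-2.4 and adjusted p = 0.117 without AT3 tumor 2). Cdkn1c was 96.2 to 340 against 442 to 792 (log2 difference -1.60 ± 0.44, adjusted p = 0.0152, limma), and lost the call without AT3 tumor 1 or 2, and with all 14 tumors and treatment as a term (-0.86, adjusted p = 0.28). The host gene Blcap had a log2 difference of 0.01 ± 0.20 between the models (adjusted p = 0.973, limma).

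The 5 remaining genes were not called. Mest had no overlap but narrowly missed (689 to 1378 against 537 to 651, log2 difference 0.77 ± 0.29, adjusted p = 0.0503, limma). Plagl1 differed by 1.08 ± 0.52 (adjusted p = 0.108), Dlk1 by -1.21 ± 0.65 (adjusted p = 0.148), Peg3 by -1.10 ± 0.68 (adjusted p = 0.202) and Igf2 by 0.71 ± 1.46 (adjusted p = 0.701) in limma. Without untreated M/D-driven tumor 2, the one high in Igf2 and Peg3, the difference of Peg3 was -1.68 and called (adjusted p = 0.0155). Without AT3 tumor 2, Plagl1 was called at 1.73 (adjusted p = 0.00705).

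**Figure D3:**
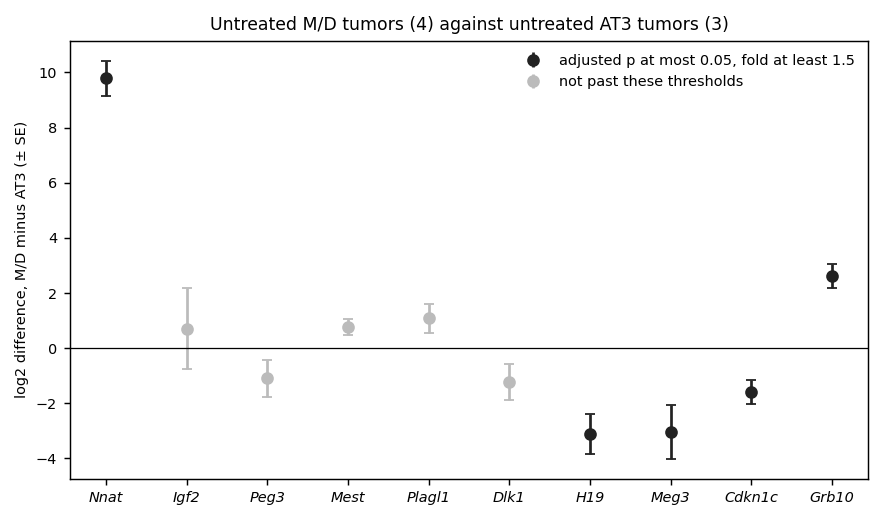
Log2 difference of untreated M/D-driven minus untreated AT3 tumors (± SE) for each imprinted gene, on the common scale, with genes past the thresholds in black and the others in grey. Nnat, also in black, is a description without a test and stands at 9.79, and Grb10 stands at 2.62, whereas H19, Meg3 and Cdkn1c lie below 0.

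Compared per kb of transcript on the common scale, H19 had the highest mean of the 10 genes in every group. The length is that of the longest GENCODE transcript, while reads were counted on constitutive regions, so ranks between genes are approximate. It was 4035 normalized reads per kb in untreated M/D-driven tumors and 24258 in untreated AT3 tumors. Nnat was the next in M/D-driven tumors, with 1046 ± 557 per kb without NAM and 2546 ± 1528 with NAM (SD, n = 4), followed by Mest with 405 ± 130 and 797 ± 681. The SD of H19 in untreated M/D-driven tumors was 4689 per kb, but both genes come from the same tumors, and H19 was above Nnat per kb in each of them. With NAM the mean of H19 was 2976 per kb (SD 5132), which rests on tumor 2, and H19 was below Nnat in treated tumors 1, 3 and 4. The order of the 10 genes within tumors was not tested. In untreated AT3 tumors Nnat was the lowest, at 0.557 per kb, and Cdkn1c (339) and Mest (229) came after H19. With NAM, Peg3 reached 279 ± 189 per kb in AT3 tumors (SD, n = 3), beside Cdkn1c at 291 and Mest at 369.

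Variation between tumors of a model was large for several of these genes. The SD of log2 values over the 8 M/D-driven tumors was 2.11 for Igf2 and 2.08 for H19, against a median of 0.712 over all genes tested, and over the 6 AT3 tumors it was 2.12 for Nnat and 1.69 for Peg3, against 0.528. H19 and Igf2 share enhancers, with H19 on the maternal and Igf2 on the paternal copy, but their levels were not found to move together across M/D-driven tumors (r = 0.398, exact permutation p = 0.34, rho = 0.262, exact permutation p = 0.536, n = 8). The ratio of H19 to Igf2 was 1608 to 2083 in untreated and 610 to 1311 in NAM-treated AT3 tumors, and from 6.91 to 964 in M/D-driven tumors. Of the neighbours, Ins2 was at 0 in all 14 tumors, and Igf2os, which overlaps Igf2 on the other strand, was highest in untreated M/D-driven tumor 2 at 71.7. Usp29, which starts opposite Peg3, was at 301 in that same tumor and at 31.0 or below in the others.

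Markers of cell types were set beside these genes. Scores of 10 fibroblast and 10 epithelial markers (mean log2 values) were each related to the 10 genes. With 3 locus partners, there were 23 relations per model, over which p-values were adjusted, and those of Nnat are a description only. Correlations were computed within each model over treated and untreated tumors together, so they include any difference with NAM. In M/D-driven tumors Dlk1 followed the fibroblast score (r = 0.959, exact permutation p = 0.000521, adjusted p = 0.012, rho = 0.881, exact permutation p = 0.00724, adjusted p = 0.167, n = 8), with r = 0.925 without the 2 tumors farthest from the median score. Grb10 had a negative correlation with the epithelial score (r = -0.918, exact permutation p = 0.0202, adjusted p = 0.181, rho = -0.50, exact permutation p = 0.216, n = 8), but r was 0.331 without the 2 farthest tumors, so the relation rests on those. In AT3 tumors all 10 genes had a positive r with the fibroblast score. For Peg3 it was 0.947 (exact permutation p = 0.00278, adjusted p = 0.0639, rho = 0.943, exact permutation p = 0.0167, adjusted p = 0.0767, n = 6), with r = 0.944 without 2 tumors.

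Grb10 had r = 0.931 with the fibroblast score in AT3 tumors and Dlk1 r = 0.947 (exact permutation p of 0.00972 and 0.00694, adjusted p = 0.0745 for both, rho = 0.943 for both, with exact permutation p = 0.0167, and r of 0.856 without 2 tumors, n = 6). In all, 6 of the 10 genes had an unadjusted p of at most 0.05 and 0 an adjusted one. The sum of the fibroblast markers was 95212 to 267187 in untreated and 139960 to 379215 in NAM-treated AT3 tumors, with 10 of 10 markers above 0 in log2 difference (47.5% of all genes) and 2 past the thresholds, both higher, at a median of 0.73. For Mest r with the fibroblast score was 0.866 (exact permutation p = 0.0278, adjusted p = 0.107, n = 6). The r values of Peg3, Grb10 and Mest across AT3 tumors were thus high but did not pass adjustment. These genes and the fibroblast markers were both higher with NAM, so r partly restates that difference. The trend on transcript length in AT3 tumors, given above, was not removed from these values, and its part in r was not tested. The part of fibroblasts in the differences with NAM was not tested.

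**Figure D4:**
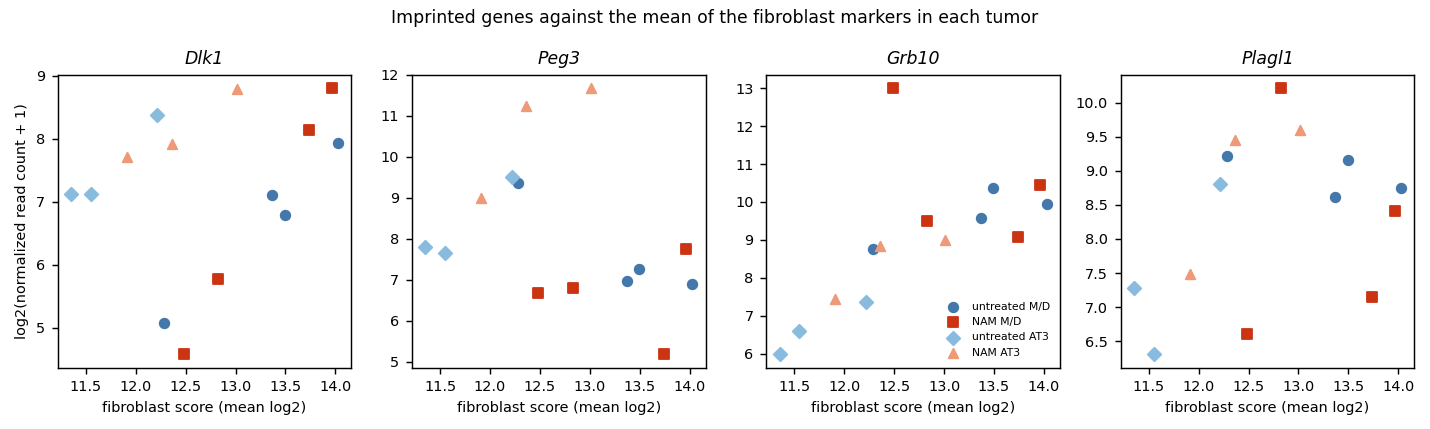
Log2(normalized read count + 1) of Dlk1, Peg3, Grb10 and Plagl1 against the mean log2 value of 10 fibroblast markers, 1 point per tumor, for the 4 groups. In AT3 tumors all 4 genes are higher where the score is higher (r of 0.947, 0.947, 0.931 and 0.885), while in M/D-driven tumors this holds for Dlk1 (r = 0.959), and the point of Grb10 near 13 is NAM-treated tumor 1.

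Nnat is known from fat tissue, so adipocyte markers were set beside it, a relation added after the data were seen and given without a test. The sum of 10 adipocyte markers was 42077 to 113494 in untreated and 61846 to 180019 in NAM-treated M/D-driven tumors. All 10 markers were above 0 in log2 difference, with a median of 0.69, beside 51.1% of all genes, and 2 of 10 passed the thresholds upward, beside 3.03% of all genes. The 10 skeletal muscle markers (median 2.30) and the 10 endothelial markers (median 0.42) were above 0 as well, and the 10 epithelial markers were below 0 (median -1.33). Adipoq (adiponectin, a hormone of fat cells) was 5123 to 7452 without NAM and 8357 to 13109 with NAM (log2 difference 0.85, adjusted p = 0.734, limma), and Pparg, the master regulator of fat cell formation, differed by 0.86 (adjusted p = 0.734). Across the 8 M/D-driven tumors Nnat had r = 0.803 and rho = 0.857 with the adipocyte score, and r = 0.83 without the 2 farthest tumors.

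Relative to the adipocyte markers, Nnat was 10.4 to 49.7 per 1000 marker counts in untreated M/D-driven tumors (median 22.1) and 15.9 to 40.8 in NAM-treated ones (median 38.0). The groups overlapped, and untreated tumor 2 had the highest ratio of all. In AT3 tumors the adipocyte sum was lower, 6412 to 9756 without NAM and 3470 to 7928 with NAM. There 7 of 10 markers were above 0 in log2 difference, beside 47.5% of all genes. Of the 10, 1 fell past the thresholds, Fabp4 (-1.02, adjusted p = 0.169, limma), beside 10.9% of all genes. Nnat per 1000 marker counts was 0 to 0.317 in untreated and 1.71 to 4.88 in NAM-treated AT3 tumors. The lack of overlap is already in the Nnat reads, by which the set was chosen, so the ratio is a description only. In AT3 tumors r was 0.464 (n = 6). Among M/D-driven tumors Nnat was thus higher where the adipocyte score was higher. That correlation runs over treated and untreated tumors, so it includes the difference with NAM by which Nnat was chosen. It is a description only, and the part of adipocytes in the difference of Nnat with NAM was not tested.

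**Figure D5:**
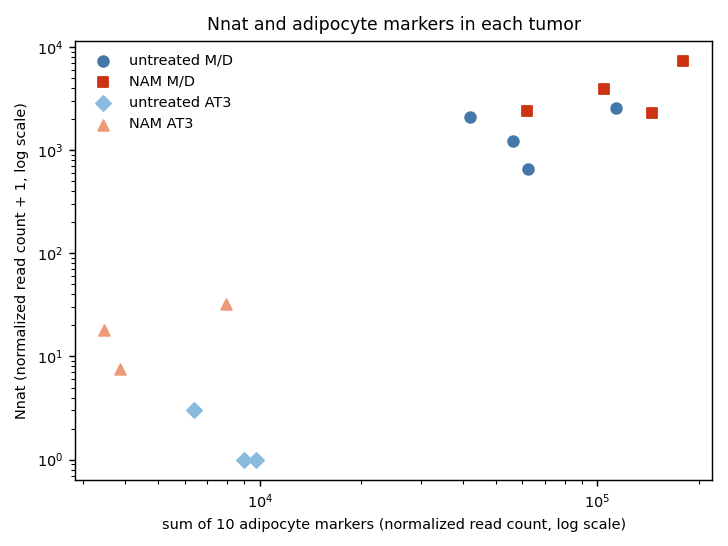
Nnat (normalized read count + 1) against the sum of 10 adipocyte markers (normalized read count), both on log scales, 1 point per tumor. The M/D-driven tumors form a group with sums of 42077 or more, and among AT3 tumors the 3 NAM-treated ones have more Nnat at sums of 3470 to 7928.

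The genes most like Nnat were those with the highest smaller value of the 2 Pearson correlations with it, within the 8 M/D-driven and within the 6 AT3 tumors, among 15413 genes with a symbol. They were Cd300lg (r = 0.90 and 0.833), Slc7a10 (0.807 and 0.841), Pnpla2 (0.804 and 0.804), Slc43a3 (0.782 and 0.805) and Ivd (0.837 and 0.778). Each correlation ran over treated and untreated tumors, so it includes the difference with NAM by which Nnat was chosen. The ranking therefore cannot tell genes that vary with Nnat from genes that are higher with NAM, and it is a description only. In AT3 tumors Cd300lg was 119 to 165 without and 220 to 284 with NAM, while the groups of Slc7a10 overlapped. Cd300lg is known as a receptor of endothelial cells and Pnpla2 as the triglyceride lipase of fat cells. Which cells expressed these genes here was not tested.

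Other imprinted genes were described from a fixed list. In M/D-driven tumors 0 of 50 tested were higher and 1 was lower with NAM past the unadjusted thresholds, beside 3.03% and 3.19% of all genes. The 1 was Kcnq1 (a potassium channel, log2 difference -0.91, adjusted p = 0.734, limma). In AT3 tumors 6 of 45 tested were higher and 4 lower, beside 12.2% and 10.9% of all genes. Among them were Zim1 (a zinc finger gene near Peg3, log2 difference 1.71), Peg13 (a noncoding RNA, 0.78), Phlda2 (a growth regulator near Cdkn1c, -1.20) and Mirg (a noncoding RNA of the Dlk1 locus, -1.34), with adjusted p of 0.166 to 0.186 in limma. Their median log2 difference was 0.03, against -0.05 for all genes. Between the untreated models 19 of 50 were higher and 6 lower in M/D-driven tumors after adjustment, beside 27.2% and 23.2% of all genes, with Slc22a3 (an organic cation transporter, 5.62), Peg13 (3.74) and Ndn (a growth suppressor of neurons, 1.94) among the higher.

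Genes that keep imprints or act with these genes were treated likewise. Of 15 tested imprint and DNA methylation regulators, 0 passed in M/D-driven tumors, beside 6.22% of all genes, and 6 passed in AT3 tumors, all higher with NAM, beside 12.2% of all genes. Zfp445, a zinc finger protein that maintains imprints, was at a log2 difference of 1.75 and Tet3, which oxidizes methylated cytosine, at 2.46 (adjusted p = 0.166 for both, limma). Of the IGF and insulin axis, 1 of 15 passed in M/D-driven tumors, Igf1r, the receptor of IGF1 and IGF2 (lower, log2 difference -1.15, adjusted p = 0.734, limma), and 3 higher and 1 lower of 14 passed in AT3 tumors (12.2% and 10.9% of all genes), among them the RNA-binding Igf2bp3 (2.06, adjusted p = 0.166). Among other partners of the encoded proteins, Notch2, a receptor that Dlk1 can act on, was the 1 of 15 that passed in M/D-driven tumors, where it was lower (-0.76, adjusted p = 0.734). In AT3 tumors 7 of the 15 were higher, beside 12.2% of all genes, and Notch2 was 1 of them (1.45, adjusted p = 0.201, limma). With other processing, the log2 difference of Notch2 in AT3 tumors ranged from 0.54 to 1.55. The list counts in AT3 tumors were made without removing the trend on transcript length given above, and its part in them was not tested.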

How the data were processed

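RNA was taken from 14 whole mammary tumors. The authors prepared polyadenylated RNA libraries, mapped paired-end reads with STAR 2.4.0 on mm10, counted reads on the constitutive regions of the genes of Mouse FAST DB, and divided the counts by DESeq2 size factors. The deposited signal is this normalized read count, for M/D-driven and AT3 tumors apart, and 0 columns were left unmapped. All values (100% within 0.01) were whole multiples of 1 read, so reads were recovered. Groups came from the sample labels. Nothing states that tumors came from separate mice in every case or that equal replicate numbers belong together, so p-values measure the spread between these tumors.

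Log2(value + 1) was modelled with limma 3.58.1 (trended variance prior, R 4.3.3), on genes whose mean reached 10 in 1 group or more. Adding 1 understates the change of low genes. P-values were adjusted by the Benjamini-Hochberg method over all genes tested. The thresholds of the study's methods (fold change of 1.5 or more and p of at most 0.05, read as unadjusted) were used within models. The members, lists and named genes were chosen with earlier results of these data known. Named genes included the members, genes of their loci and some listed genes past the thresholds of a contrast. The latter were not always those with the smallest p. Exact two-sided permutation tests were used for correlations (scipy 1.17.1). Alternatives included edgeR 4.0.16 and DESeq2 1.42.0 on the recovered reads. Scripts were tested on simulated data. Python 3.11.15, pandas 2.3.3, numpy 2.4.6 and matplotlib 3.10.9 were used. Intervals on reads cover counting error only.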

Additional observations from a re-analysis of the deposited data

Results flagged for a closer look

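In 50 combinations of gene and group of 4 M/D-driven tumors, 12 had 1 tumor far from the other 3 by Dixon's criterion. It was applied to normalized read counts without a log, and all 12 flags were for the highest tumor. Its rate of about 1 of 20 groups holds for normally distributed values. Counts need not be such, and the combinations share tumors, so 12 of 50 cannot be set against that rate. Groups of 3 AT3 tumors were not tested. Untreated tumor 2 accounted for 6 of them, with H19 at 26810, Igf2 at 1067, Peg3 at 655.2, Igf1r at 2249, Igf2bp3 (an RNA-binding protein of fetal tissue) at 684.5 and Kcnq1 at 475.9. NAM-treated tumor 2 was far above its group for H19 (25840) and Phlda2 (921.9). NAM-treated tumor 1, the tumor with high B cell and low epithelial counts, was so for Igf2 (87.43) and Grb10 (8240). Untreated tumor 4 was so for Ndn (1468) and Adipoq (7452). The effect of NAM on Peg3 differed between the models by -3.346 on the log2 scale in the interaction test (adjusted p = 0.235 in limma).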

How the results depend on the processing

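Over all alternatives, 121 counts stayed within 1.5 times and 37 did not, and of the single values 1031 kept direction and side, 45 passed the thresholds newly, 63 no longer passed, 29 turned and 6 untested values moved by more than the spread. The cause was not tested. Genes past the thresholds with NAM in M/D-driven tumors (1350) were 2180 without a filter, 859 at a minimum mean of 50, 2092 with DESeq2 and 2225 in a fit of all 14 tumors. In AT3 tumors (4458) and in the interaction (3377) they were 2623 and 2132 with the length and GC trend removed. Of the imprinted genes, DESeq2 called 1 in M/D-driven tumors, 6 in AT3 tumors and 3 in the interaction, among 2092, 5049 and 4228 genes called. In limma they were none, 3 and 1, among 1350, 4458 and 3377. The fit of all 14 tumors called 1 in AT3 tumors (among 3323 genes), and edgeR called 2 in the interaction (among 3634). With the trend removed 2 were called in the interaction (among 2132). Between the untreated models 8 were called with the trend removed (among 8775) and 5 in limma (among 10963). Both of these counts include Nnat, which is a description only.

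With the replicate number as a block, 1 imprinted gene was called in M/D-driven tumors (H19), 5 in AT3 tumors and 2 in the interaction. These were among 1001, 5082 and 2959 genes called. Meg3 then lost its call between models (adjusted p = 0.0682, limma). Deviations of same-numbered tumors correlated on average by -0.18 in M/D-driven and 0.07 in AT3 tumors (from -0.44 to 0.11 and -0.16 to 0.26), so the numbers were not taken to pair tumors.

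Turned values were, with NAM in AT3 tumors, H19 at -0.087 with upper quartile scaling and Cdkn1c at 0.093 with the trend removed. In the interaction they were Mest at 0.057 (upper quartile), 0.19 (edgeR) and 0.29 (DESeq2) and Dlk1 at 0.037 (edgeR) and 0.12 (DESeq2). Between the models they were Igf2 at -0.17 and Plagl1 at -0.015 with treatment as a term, and Blcap at -0.48 (upper quartile) and -0.071 (replicate block).

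With each tumor left out, calls with NAM ranged from 784 to 2712 genes and 0 to 2 imprinted genes in M/D-driven tumors. In AT3 tumors they ranged from 1618 to 6765 and 2 to 6, and in the interaction from 1838 to 4574 and 1 to 3. Between models they ranged from 8310 to 11521 genes and 3 to 7 imprinted genes, a count that includes Nnat, which is a description only. Log2 differences in M/D-driven tumors ranged from -1.48 to 0.93 (Igf2), -0.15 to 1.24 (Mest), -0.56 to 0.85 (Dlk1) and -0.071 to 0.26 (Blcap), and in AT3 tumors from -0.12 to 0.53 (H19) and -0.38 to 0.064 (Cdkn1c). They ranged from -0.86 to 0.53 (Mest) and -1.16 to 0.25 (Dlk1) in the interaction, and from -0.75 to 1.66 (Igf2) and -0.071 to 0.16 (Blcap) between models. Depth limits Nnat in untreated AT3 tumors, where 2 reads were counted in all.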

Other observations

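Further genes of the same loci varied between tumors. Kcnq1ot1, the noncoding RNA that silences the Cdkn1c region on the paternal copy, was at 1486 in untreated AT3 tumor 2 and at 1008 in NAM-treated M/D-driven tumor 4. Rian, a noncoding RNA of the Dlk1 locus, was 929, 225, 1011 and 1119 in untreated and 223, 1827, 1108 and 526 in NAM-treated M/D-driven tumors, and 766 to 1517 in AT3 tumors. Rtl1, a paternally expressed gene of that locus, was at 7 or below in all 14 tumors. The order of Rian among M/D-driven tumors had treated tumor 2 highest, as for Meg3. No hypothesis was tested on these values.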
